A study of Homo sapiens with 8 samples.

Results

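Serine synthesis and one-carbon metabolism was followed through 10 genes in RNA sequencing of MDA-MB-231 lines with altered DAXX. The genes were *PHGDH*, *PSAT1*, *PSPH*, *SHMT1*, *SHMT2*, *MTHFD1*, *MTHFD2*, *MTHFD1L*, *ALDH1L2* and *GLDC*, out of 36991 genes with a value. They were chosen by pathway name, with no threshold on a level, but with their values in all 8 libraries already in view. Their levels and differences are therefore given as a description, with no p-value printed for a member. The calls and counts of members below do use p-values, so they too are a description and no independent test. MDA-MB-231 is a triple-negative breast cancer cell line, and 2 cultures of each of 4 derived lines were profiled. The KD line carried a lentiviral shRNA against *DAXX*, the WT OE line a lentiviral cDNA of unmutated *DAXX*, and the DSM OE line a cDNA in which both SUMO-interacting motifs were disabled. Cells with a scrambled shRNA, called control, were set against all of them. The lines were selected with puromycin and grown in DMEM medium. Each line is 1 stable line, and no library came from a line with an empty cDNA vector, so an effect of the construct and the history of a line cannot be told apart.

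Cells make serine from the glycolytic intermediate 3-phosphoglycerate. PHGDH oxidizes it, PSAT1 transfers an amino group from glutamate, and PSPH removes the phosphate. Serine hydroxymethyltransferases then split serine into glycine and a folate-bound one-carbon unit, SHMT1 in the cytosol and SHMT2 in mitochondria. MTHFD2 and MTHFD1L carry the unit to formate in mitochondria, MTHFD1 interconverts folate forms in the cytosol, and ALDH1L2 oxidizes mitochondrial formyl-folate. GLDC, a subunit of the glycine cleavage system, takes the one-carbon unit from glycine. Several of these genes are known targets of ATF4, the transcription factor of the amino acid response, and MDA-MB-231 is known as a line with little PHGDH.

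Values were FPKM, fragments scaled to transcript length and to mapped depth, so levels can be set side by side between genes. A difference was fitted on log2(FPKM + 1) with limma over the 10465 genes that reached an FPKM of 1 in 2 or more libraries, and called where the Benjamini-Hochberg adjusted p over these genes was under 0.05. The paper's methods state raw reads per sample, but no read counts were used, so the mapped depth of each library is unknown. Depth relative to the first control library was estimated from low values at 0.898 to 1.15. *DAXX* was listed at 8.60 and 7.30 in KD cells, 158 and 283 in WT OE cells and 64.6 and 93.8 in DSM OE cells, against 25.3 and 37.4 in control cells. Only the KD fall and the WT OE rise passed the test (log2 fold change -1.83, adjusted p = 0.0364, and 2.74, adjusted p = 0.0175). The fall was lost when any single library but those of WT OE was left out (-2.10 to -1.56), and the rise without WT OE replicate 2 or 1 of the control libraries (2.33 to 3.16). FPKM does not separate endogenous *DAXX* RNA from the introduced cDNA. The mesenchymal markers of the parental line (*VIM*, *CD44*, *AXL*, *CAV1* and *MSN*) summed to 361 and 1291 in KD cells, with *VIM* at 39.1 and 970, and to 1092 to 1700 in the other lines. Of 13 markers of other lines, *ESR1*, *PGR*, *CDX2* and *KLK3* were at 0 in every library, and the sum ran from 8.52 to 14.8. The 7 blood, endothelial and stromal markers with a value summed to 8.21 to 8.56 in KD, 5.999 to 6.755 in WT OE, 7.02 to 7.12 in DSM OE and 4.91 to 5.14 in control, with *CD3E* at 0 in every library. Their part in the differences below was not tested.

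*PHGDH*, which encodes the first enzyme of serine synthesis, had the widest range of line means among the tested members. The gene (ENSG00000092621) lies on chromosome 1 from 119711934 to 119744215 in GRCh38.p14. Its FPKM was 2.06 and 1.88 in KD cells, 12.0 and 11.0 in WT OE cells and 18.6 and 16.0 in DSM OE cells, against 3.48 and 3.06 in control cells. No 2 lines overlapped, and the order was DSM OE, WT OE, control and KD. Mean FPKM was 1.97 ± 0.129 in KD, 11.5 ± 0.656 in WT OE, 17.3 ± 1.81 in DSM OE and 3.27 ± 0.296 in control (SD, n = 2 each). Over control the log2 fold changes of 1.55 in WT OE cells and 2.10 in DSM OE cells (standard error 0.12 for each) were called. The KD value of -0.52 (standard error 0.12) was not called with a pseudocount of 1. With a pseudocount of 0.1 it was -0.70 and was called. In bulk RNA, fewer expressing cells and less RNA per cell cannot be told apart.

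*PSAT1*, the gene of the second enzyme, was the most abundant of the 10 in every library. It lies on chromosome 9 from 78297125 to 78330093 (ENSG00000135069). Its FPKM was 45.0 and 44.4 in KD cells, 92.5 and 91.2 in WT OE cells and 149 and 139 in DSM OE cells, against 40.9 and 36.7 in control cells. The overexpression lines again stood above both shRNA lines, with DSM OE highest. Both rises over control were called, with log2 fold changes of 1.22 in WT OE and 1.87 in DSM OE (standard error 0.09 for each), and the KD value of 0.20 was not. The level of *PSAT1* was 21.8 and 23.6 times that of *PHGDH* in KD, 7.73 and 8.27 times in WT OE cells, 8.04 and 8.69 times in DSM OE cells, and 11.7 and 12.0 times in control cells. This ratio was highest in KD and lowest in the overexpression lines.

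*PSPH*, the gene of the last step of serine synthesis (ENSG00000146733, chromosome 7, 56011064 to 56051444), did not follow the first 2. Its FPKM was 4.58 and 9.58 in KD cells, 6.21 and 4.70 in WT OE cells and 18.8 and 4.27 in DSM OE cells, against 10.2 and 11.5 in control cells. The DSM OE duplicates lay on either side of all the other libraries. No difference was called, and the log2 fold change in DSM OE was -1.17 without DSM OE replicate 1 and 0.74 without DSM OE replicate 2. Reads of *PSPH* may be shared with its pseudogene *PSPHP1*, which was listed at 1.48 in WT OE replicate 1 and at 0 in the other libraries. The plot of FPKM by line shows these levels for the 8 expressed members.

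**Figure D1:**
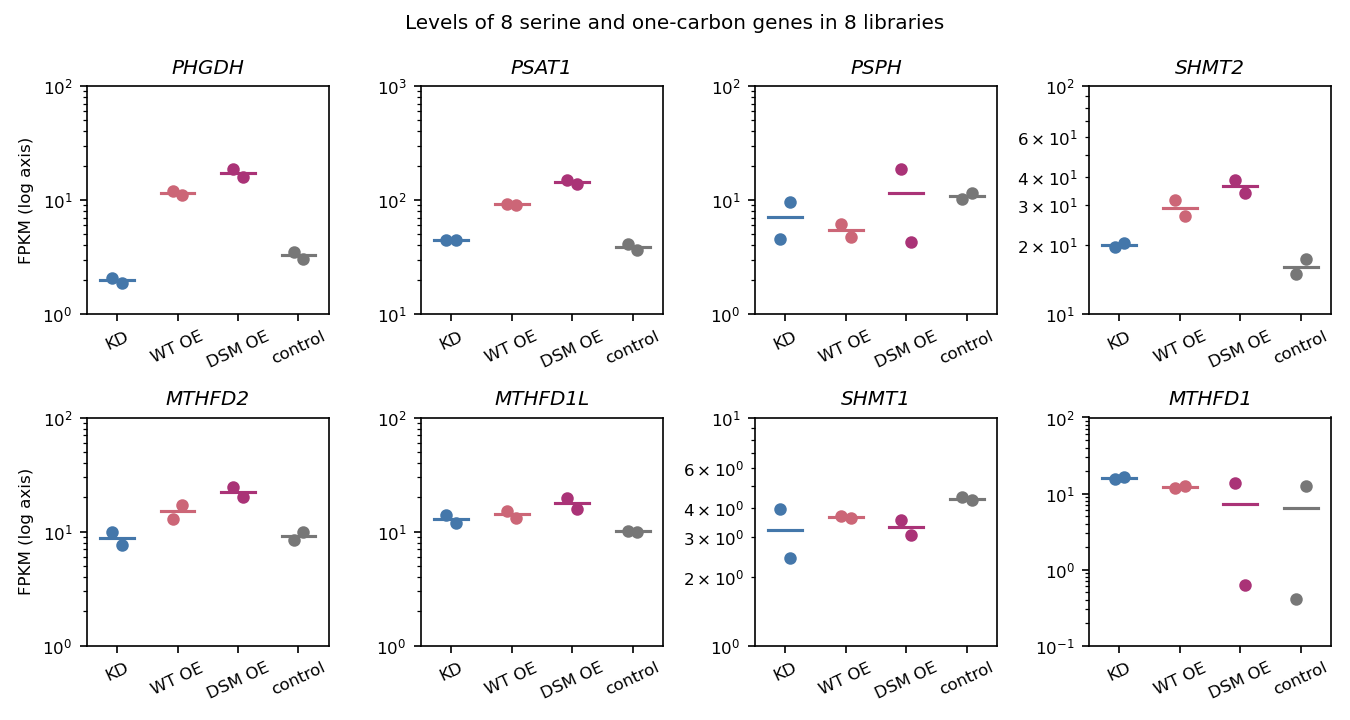
FPKM (log axis, with a range of its own in each panel) of the 8 members that were tested, in KD, WT OE, DSM OE and control cells. Points are the 2 libraries of a line and horizontal lines their mean. *PHGDH* and *PSAT1* are highest in DSM OE and next highest in WT OE, while *MTHFD1* drops to 0.627 in one DSM OE and to 0.416 in one control library.

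Promoter windows are shown for *PHGDH* and *PSAT1*, the members with the largest called differences, and for *MTHFD1L*. Of the 7 members with a window, it was the one whose window held the searched ATF4-type element. Windows span 250 bases before to 50 bases after a RefSeq transcript start in GRCh38.p14, and 7 of the 10 members had one (the first listed was used for each gene). *PSPH*, *SHMT2* and *ALDH1L2* had none and were not searched. The letters TGATGNAA, the core of the C/EBP-ATF response element that ATF4 binds, and CCAAT, the box bound by NF-Y, were searched on both strands. The motifs do not overlap in these windows. Capitals mark the matches, and every printed sequence is the plus strand, 5′ to 3′.
PHGDH, chr1:119711684-119711983: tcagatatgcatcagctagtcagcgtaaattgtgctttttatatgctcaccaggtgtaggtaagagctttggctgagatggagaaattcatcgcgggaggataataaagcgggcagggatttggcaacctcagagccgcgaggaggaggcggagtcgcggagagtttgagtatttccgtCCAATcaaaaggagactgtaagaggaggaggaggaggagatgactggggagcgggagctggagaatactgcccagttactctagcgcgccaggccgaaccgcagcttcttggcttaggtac
PSAT1, chr9:78296875-78297174: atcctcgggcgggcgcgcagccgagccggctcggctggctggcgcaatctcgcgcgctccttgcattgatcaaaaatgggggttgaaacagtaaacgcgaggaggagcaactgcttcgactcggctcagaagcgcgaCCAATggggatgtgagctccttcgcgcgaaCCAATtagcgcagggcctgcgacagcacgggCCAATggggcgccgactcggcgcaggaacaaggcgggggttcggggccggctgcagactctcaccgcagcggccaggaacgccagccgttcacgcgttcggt
MTHFD1L, chr6:150866236-150866535: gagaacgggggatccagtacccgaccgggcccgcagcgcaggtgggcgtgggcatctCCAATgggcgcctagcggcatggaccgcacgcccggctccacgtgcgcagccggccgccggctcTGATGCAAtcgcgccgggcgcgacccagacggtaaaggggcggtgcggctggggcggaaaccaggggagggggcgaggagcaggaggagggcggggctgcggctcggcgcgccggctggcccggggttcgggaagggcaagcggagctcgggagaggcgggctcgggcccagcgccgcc
Of the 7 windows, that of *MTHFD1L* alone held TGATGNAA, as TGATGCAA with its first base at -129 from the start used. The element was found in 3.62% of all 35116 windows. For *MTHFD1L* the start used lies inside the gene, as the window begins at 150866236 and the gene at 150865702. The matched letters are therefore downstream of the listed gene start. For *PHGDH* and *PSAT1* the start used is the listed gene start. CCAAT was found once in the *PHGDH* window, at -71, and at 3 places in the *PSAT1* window, at -113, -83 and -52. It is common, with a match in 34.6% of all windows. A match is a description of the letters and not a measured binding site, and a window without a match does not show that the gene lacks the element.

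Transcripts of 3 mitochondrial enzymes of one-carbon metabolism also rose in DSM OE, and 1 of them in WT OE. *SHMT2*, which encodes the mitochondrial serine hydroxymethyltransferase (ENSG00000182199, chromosome 12, 57229711 to 57234935), had an FPKM of 19.7 and 20.6 in KD cells, 31.5 and 26.9 in WT OE cells and 38.6 and 34.1 in DSM OE cells, against 15.0 and 17.4 in control cells. The 4 lines did not overlap, with control lowest and DSM OE highest. Log2 fold changes over control of 0.81 in WT OE and 1.12 in DSM OE (standard error 0.13 for each) were called, and that of 0.30 in KD was not. The WT OE call was lost when any 1 of the 8 libraries was left out (0.70 to 0.93).

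*MTHFD2*, the mitochondrial methylene-folate dehydrogenase gene (ENSG00000065911, chromosome 2, 74198615 to 74217565), had an FPKM of 9.99 and 7.58 in KD cells, 13.0 and 17.0 in WT OE cells and 24.5 and 20.1 in DSM OE cells, against 8.41 and 9.87 in control cells. KD and control overlapped, and both overexpression lines lay above them. The log2 fold change of 1.20 in DSM OE (standard error 0.20) was called, and those of 0.65 in WT OE and -0.06 in KD were not. The DSM OE call was lost without either control library or either DSM OE library (1.06 to 1.34 over the 8 libraries left out), and with the replicate block.

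*MTHFD1L*, the gene of the mitochondrial enzyme that releases formate (ENSG00000120254, chromosome 6, 150865702 to 151101887), differed less. Its FPKM was 13.9 and 11.9 in KD cells, 15.3 and 13.1 in WT OE cells and 19.9 and 15.8 in DSM OE cells, against 10.2 and 9.94 in control cells. Control was lowest, KD and WT OE overlapped, and DSM OE was highest. The log2 fold change was 0.76 in DSM OE (standard error 0.15), which was called, and 0.46 in WT OE and 0.32 in KD, which were not. The call was lost when any single library but those of WT OE was left out (0.61 to 0.92).

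The last 2 mitochondrial genes were barely detected. *ALDH1L2* was listed at 0.00127 in KD replicate 1 and 0.000979 in WT OE replicate 2, and at 0 in the other 6 libraries. *GLDC* was listed at 0.00540 and 0.0437 in KD cells, 0.00405 and 0.00222 in WT OE cells and 0.0397 and 0 in DSM OE cells, against 0 and 0.00195 in control cells. Neither gene passed the filter on low values, so 8 of the 10 members were tested.

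Neither gene of the cytosolic enzymes was called in any comparison. *SHMT1* (ENSG00000176974, chromosome 17, 18327873 to 18363550) had an FPKM of 3.99 and 2.42 in KD cells, 3.70 and 3.63 in WT OE cells and 3.56 and 3.04 in DSM OE cells, against 4.49 and 4.33 in control cells. Control was highest, the KD libraries spanned those of both overexpression lines, and no difference was called (log2 fold changes -0.39 in KD cells, -0.22 in WT OE cells and -0.33 in DSM OE cells, standard error 0.19 for each). *SHMT2* was 4.94 and 8.49 times as high as *SHMT1* in KD, 8.53 and 7.41 times in WT OE cells and 10.8 and 11.2 times in DSM OE cells, against 3.33 and 4.01 times in control cells. The ratio in each altered line lay above both control values.

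*MTHFD1* (ENSG00000100714, chromosome 14, 64388353 to 64460025) had duplicates that differed widely in 2 lines. Its FPKM was 15.7 and 16.6 in KD cells, 11.7 and 12.8 in WT OE cells and 13.9 and 0.627 in DSM OE cells, against 0.416 and 12.6 in control cells. The 6 higher libraries lay between 11.7 and 16.6, and the 2 low ones were in different lines. Its duplicates differed 22.2-fold in DSM OE and 30.3-fold in control, and those of *PSPH* differed 4.39-fold in DSM OE and 2.09-fold in KD. Among all tested genes whose mean in a line reached an FPKM of 5, 5.08% to 5.85% differed by more than 2-fold between duplicates. The sources used here do not give how transcript values were joined into a gene value, and the part of that step in these gaps was not tested. The log2 fold change of *MTHFD1* in KD was 1.97 (standard error 1.34, not called), and it was 0.34 without control replicate 1 and 3.60 without control replicate 2.

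As a group, 3 of the 8 tested members rose in WT OE and 5 rose in DSM OE. In WT OE these were *PHGDH*, *PSAT1* and *SHMT2*, against 2.49% of all genes called higher and 2.62% called lower in that comparison. In DSM OE they were the same 3 with *MTHFD2* and *MTHFD1L*, against 5.51% called higher and 5.5% called lower. No member fell in either line. With p unadjusted (under 0.05), each line had 5 members higher and 0 lower. For WT OE this compares with 12.2% of all tested genes higher and 10.4% lower, and for DSM OE with 14.8% higher and 13.4% lower. In KD limma called no member, against 3.51% of all genes higher and 3.69% lower, and at an unadjusted p under 0.05 the 1 member lower (*PHGDH*) and 0 higher stood beside 11.2% of all tested genes lower and 12.1% higher, so 1 of 8 is near that share. Across the 8 members the median log2 fold change stood at 0.07 in KD cells, 0.73 in WT OE cells and 0.94 in DSM OE cells, and across all tested genes at 0.03, 0.02 and 0.02. Since the members were listed with these values in view, the counts are a description and nothing is read from them. The count in WT OE was 2 whichever library was left out, and that in DSM OE was 3 without either control or either DSM OE library. The calls of *PHGDH* and *PSAT1* in both lines and of *SHMT2* in DSM OE held with each of the 8 libraries left out. When limma was given the 4 libraries of a comparison and no others, it called *PHGDH* and *PSAT1* in DSM OE and no member in WT OE.

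**Figure D2:**
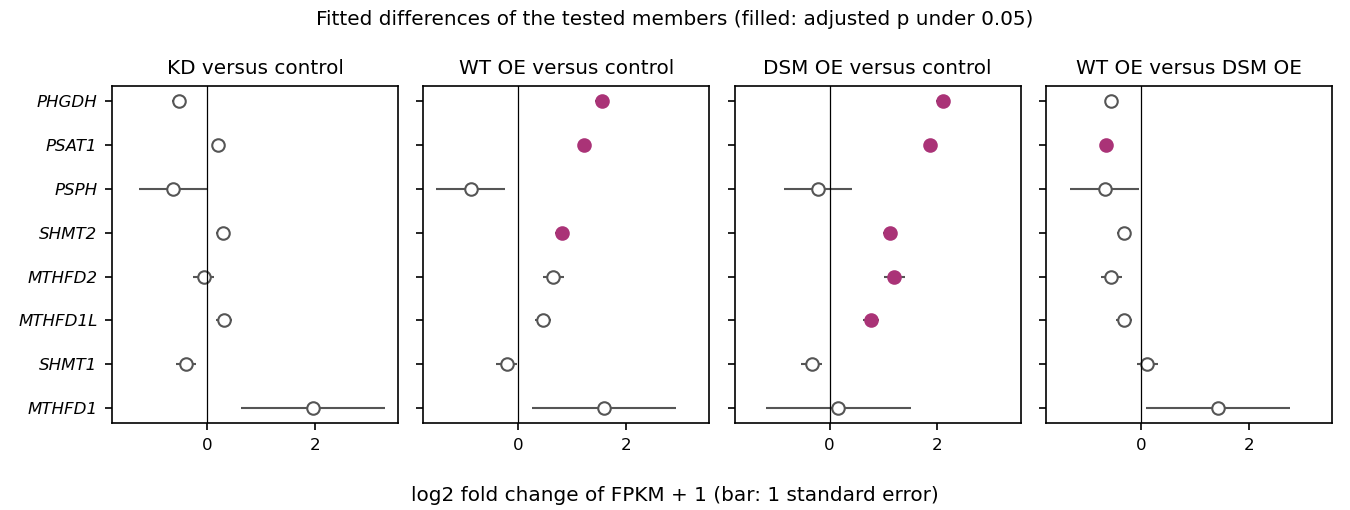
Log2 fold change of FPKM + 1 of the 8 tested members in 4 comparisons, with bars of 1 standard error and filled points for an adjusted p under 0.05. In DSM OE against control 5 members are filled and in WT OE against control 3, and *PSAT1* is the 1 filled point between the overexpression lines.

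The overexpression lines were also compared directly, which asks whether the mutant line differed from the wild-type line. *PSAT1* was lower in WT OE than in DSM OE by 0.65 on the log2 scale (log2 fold change -0.65, standard error 0.09), the 1 member called, against 0.65% of all genes called lower in WT OE and 0.946% called higher. This call was lost with any 1 of the 8 libraries left out (-0.70 to -0.60) and with the replicate block. *PHGDH* and *MTHFD2* had log2 fold changes of -0.55 each, *SHMT2* and *MTHFD1L* of -0.31 each, and none of these was called. The median of the 8 members was -0.43, and that of all tested genes -0.01. Both WT OE libraries lay below both DSM OE libraries for 5 of the 8 members (*PHGDH*, *PSAT1*, *SHMT2*, *MTHFD2* and *MTHFD1L*), and for 23.7% of all tested genes. *DAXX* itself was 158 and 283 in WT OE cells and 64.6 and 93.8 in DSM OE cells, so the mutation, the level of *DAXX* RNA and the history of each line cannot be told apart. The comparisons with control share its 2 libraries.

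The genes whose levels correlated most with those of *PHGDH*, the member with the widest range of line means, were *RCAN1*, *XBP1*, *FHL2*, *OCIAD1* and *KAT2B*. Likeness was Pearson's correlation of log2(FPKM + 1) over the 8 libraries, among 6183 other genes whose highest line mean reached an FPKM of 5, and it was 0.995 for *RCAN1* and 0.984 to 0.986 for the others. A correlation leaves out the size of a change. In DSM OE the log2 fold changes ran from 0.57 for *FHL2* to 1.125 for *OCIAD1*, against 2.10 for *PHGDH*. *RCAN1* reached a line mean of 5 in DSM OE alone (5.24, against 2.78 in KD, 4.54 in WT OE and 3.14 in control). *XBP1*, which encodes a transcription factor of the unfolded protein response, was listed at 30.9 and 32.1 in KD cells, 48.0 and 45.2 in WT OE cells and 50.7 and 51.3 in DSM OE cells, against 32.1 and 33.3 in control cells. Among the members, *PSAT1* had a correlation of 0.957 with *PHGDH* (rank 58), *MTHFD2* of 0.931 (rank 126) and *SHMT2* of 0.893 (rank 211). *MTHFD1L* had 0.756 (rank 644), *PSPH* -0.03 and *MTHFD1* -0.18. *SHMT1*, with its highest line mean at 4.41 in control, was under the FPKM limit of 5 and was not ranked. The 8 points fall into 4 lines of 2, so these values describe the order of the lines and carry no test.

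Genes next to the pathway were taken from 7 lists of related functions, with 65 of 86 genes tested. These lists, too, were chosen with earlier results of these data known. Their counts and p-values, here and in the paragraphs on these lists below, are therefore a description and no independent test. Of the 65, limma called 2 up and 4 down in KD, 2 up and 3 down in WT OE, and 10 up and 1 down in DSM OE. Over all tested genes the shares were 3.51% up and 3.69% down for KD, 2.49% up and 2.62% down for WT OE, and 5.51% up and 5.5% down for DSM OE, and the 2 of 65 up in KD and in WT OE were near them. Among 8 transport genes limma called none in any of the 4 comparisons. *SLC1A5*, which encodes a neutral amino acid transporter, was 154 and 141 in KD cells, 198 and 164.96 in WT OE cells and 176 and 159 in DSM OE cells, against 122 and 128 in control cells (adjusted p = 0.313, 0.0681 and 0.0837). *SLC38A2*, another such transporter gene, had log2 fold changes of -0.09, 0.20 and 0.05. At an unadjusted p under 0.05, 12.1% of all tested genes were higher and 11.2% lower for KD, 12.2% and 10.4% for WT OE, 14.8% and 13.4% for DSM OE, and 8.78% and 7.84% for WT OE against DSM OE. Read beside these shares, KD had 1 transport gene higher, WT OE 3 and DSM OE 2, with none lower, and 1 was lower in WT OE than in DSM OE, where 1 of 8 is near the share of all genes. Among 12 folate cycle genes limma called none either, with 1 higher and 1 lower at an unadjusted p under 0.05 in each comparison with control, and 1 lower in WT OE than in DSM OE, which are near or under those shares. *TYMS*, the thymidylate synthase gene, was 51.6 and 50.02 in KD cells, 40.0 and 20.6 in WT OE cells and 27.7 and 27.5 in DSM OE cells, against 63.6 and 55.7 in control cells (adjusted p = 0.697, 0.109 and 0.0679). Among 5 genes of serine and glycine handling none was called in any of the 4 comparisons. At an unadjusted p under 0.05, WT OE had 1 of them higher, DSM OE 2 higher and 1 lower, and KD none, and between the overexpression lines 1 went each way. *DLD* and *SDSL* had adjusted p = 0.163 and 0.133 in DSM OE cells.

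*CTH*, the gene of cystathionine gamma-lyase, which makes cysteine from cystathionine, rose in both overexpression lines. Its FPKM was 3.54 and 2.23 in KD cells, 8.69 and 7.02 in WT OE cells and 15.6 and 14.5 in DSM OE cells, against 1.38 and 2.84 in control cells. The log2 fold change was 1.54 in WT OE (standard error 0.28, adjusted p = 0.0413) and 2.41 in DSM OE (adjusted p = 0.00874), and 0.34 in KD (adjusted p = 0.519). *MAT2B*, which encodes the regulatory subunit of methionine adenosyltransferase, rose by 0.47 on the log2 scale in KD (adjusted p = 0.0392), with 19.2 and 18.9 in KD cells against 13.6 and 13.3 in control cells. These were the only genes called of 9 tested for the methionine cycle and transsulfuration. Of 12 purine synthesis genes, *IMPDH1*, which encodes an IMP dehydrogenase, fell in both overexpression lines (log2 fold change -0.86 in WT OE, adjusted p = 0.0268, and -1.43 in DSM OE, adjusted p = 0.00461). Its FPKM was 11.6 and 9.31 in WT OE cells and 6.40 and 6.97 in DSM OE cells, against 18.7 and 20.8 in control cells. *IMPDH1* was the 1 purine synthesis gene called in each overexpression line, where 2.62% of all tested genes were called lower in WT OE and 5.5% in DSM OE. The calls of *CTH* in WT OE and of *MAT2B* were lost when any 1 library was left out, and that of *IMPDH1* in WT OE when any but WT OE replicate 1 was. *CTH* and *IMPDH1* in DSM OE held with each library left out (2.06 to 2.75 and -1.50 to -1.36).

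Among 9 regulators of serine synthesis genes, *ATF4*, *CEBPB* and *CEBPG* passed the test in DSM OE, against 5.51% of all genes called higher, and the *CEBPG* call was the 1 of these 3 that held with each library left out. *ATF4* was 158 and 160 in KD cells, 244 and 228 in WT OE cells and 247 and 207 in DSM OE cells, against 163 and 167 in control cells (adjusted p = 0.802, 0.0545 and 0.0496, log2 fold change 0.51 in WT OE and 0.45 in DSM OE). *CEBPG*, which encodes a dimer partner of ATF4, was 9.79 and 10.1 in KD cells, 14.7 and 15.4 in WT OE cells and 20.9 and 20.1 in DSM OE cells, against 10.2 and 9.08 in control cells, and rose in both overexpression lines (adjusted p = 0.0329 and 0.00559). *CEBPB* was 81.0 and 63.9 in KD cells and 60.7 and 81.1 in DSM OE cells, against 37.0 and 35.4 in control cells, and passed in DSM OE (adjusted p = 0.0464) but not in KD (adjusted p = 0.0532). *MYC* rose by 0.82 on the log2 scale in KD (adjusted p = 0.0318), with 54.8 and 51.7 in KD cells against 27.4 and 32.1 in control cells. It was the 1 regulator called in KD, where 3.51% of all tested genes were called higher. *EHMT2*, a histone methyltransferase gene, was 7.76 and 6.99 in WT OE cells, 15.0 and 18.7 in DSM OE cells and 15.7 and 16.8 in control cells, and fell in WT OE (adjusted p = 0.0175). In WT OE *CEBPG* was the 1 regulator called higher and *EHMT2* the 1 called lower, against 2.49% and 2.62% of all tested genes. *EHMT2* was also lower in WT OE than in DSM OE (log2 fold change -1.08, adjusted p = 0.0275). It was the 1 of 65 related genes called between the overexpression lines, against 0.65% of all tested genes called lower and 0.946% called higher. The *ATF4* call was lost when any library but DSM OE replicate 2 was left out (0.33 to 0.58), and under each other alternative except quantile normalization (0.40 to 0.50). The *CEBPB* call and that of *CEBPG* in WT OE were lost when any 1 library was left out, that of *MYC* when any but those of WT OE was (0.71 to 0.93), and those of *EHMT2* without 4 and 7 of the 8 libraries in turn (-1.11 to -0.98 over control and -1.24 to -0.93 over DSM OE).

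Of 10 further targets of ATF4 in the amino acid response, 6 rose in DSM OE, against 5.51% of all tested genes called higher, and 4 fell in KD, against 3.69% called lower. In WT OE limma called *TRIB3* as lower and none as higher, against 2.62% and 2.49% of all tested genes. *ASNS*, the asparagine synthetase gene, was 4.29 and 1.27 in KD cells, 13.6 and 11.8 in WT OE cells and 16.4 and 18.8 in DSM OE cells, against 3.86 and 3.35 in control cells (adjusted p = 0.576, 0.0768 and 0.029). *SESN2*, which encodes the leucine sensor sestrin, was 6.04 and 5.32 in KD cells, 16.8 and 12.2 in WT OE cells and 29.0 and 29.6 in DSM OE cells, against 5.97 and 8.55 in control cells (adjusted p = 0.00782 in DSM OE). *CHAC1*, a glutathione-degrading enzyme gene, and *SLC7A11*, the cystine transporter gene, both fell in KD, by 1.38 and 0.96 on the log2 scale (adjusted p = 0.0192 and 0.0205). In DSM OE both rose, with log2 fold changes of 1.08 (adjusted p = 0.0292) and 1.31 (adjusted p = 0.00831). The other 2 that fell in KD were *DDIT4* and *VLDLR*, and the others that rose in DSM OE were *DDIT4* and *SLC7A5*. At an unadjusted p under 0.05, 5 targets were higher and 2 lower in WT OE (12.2% and 10.4% of all tested genes), and 7 were lower in WT OE than in DSM OE (7.84%), with none called. Their median log2 fold change was -0.42 in KD cells, 0.31 in WT OE cells and 0.95 in DSM OE cells. The *ASNS* call was lost without either control, WT OE or DSM OE library (1.92 to 2.10), that of *CHAC1* in DSM OE when any but those of WT OE was left out (0.86 to 1.29) and in KD without control replicate 2 or either KD library (-1.59 to -1.16), and that of *SLC7A11* in KD without either control library or KD replicate 1 (-1.11 to -0.81). The calls of *DDIT4* in KD, *VLDLR* and *TRIB3* were lost when any 1 library was left out, and that of *SLC7A5* when any but those of WT OE was. For *DDIT4* in DSM OE this held for each DSM OE library and control replicate 1. *SESN2* and *SLC7A11* in DSM OE held with each library left out. The plot of the lists sets all of these beside the 8 members.

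**Figure D3:**
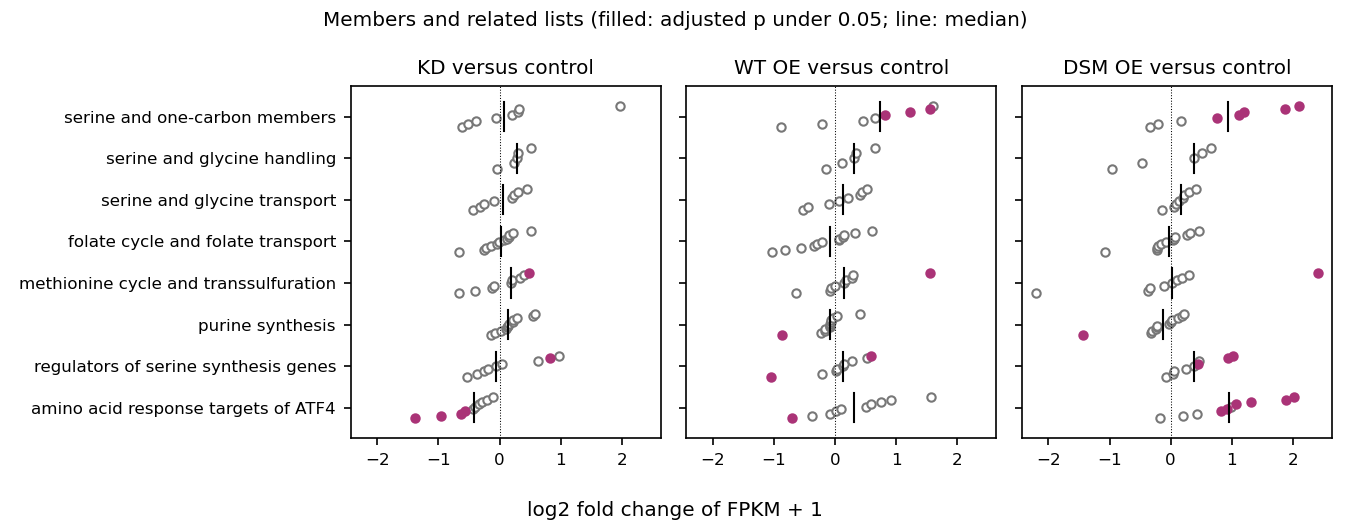
Log2 fold change of FPKM + 1 over control in KD, WT OE and DSM OE for the tested members and the tested genes of 7 related lists. Each point is 1 gene, filled where the adjusted p was under 0.05, and the black line is the median of the list. In DSM OE the medians of the members and of the ATF4 targets are 0.94 and 0.95, and those of the other lists lie between -0.12 and 0.38.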

How the data were processed

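Total RNA of 8 cultures was made into poly A libraries and sequenced as read pairs. FPKM were made by the authors, with HISAT2, StringTie, Ballgown and limma named in the methods and the submitters' notes, which list GRCh38 and hg19. The FPKM values were used as deposited, 1 per gene and library. Of 36991 Ensembl identifiers, 35836 matched a symbol. No counts were used, so the mapped depth of each library is unknown and no counting error is given.

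Libraries were grouped by title and genotype label. Both DSM OE samples carry WT in the title as well, and were grouped by their genotype label, DSM. The design text speaks of duplicate cultures and the sample notes of triplicates. If the cultures of a line were not independent, p-values measure only the spread between these samples.

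Genes that reached an FPKM of 1 in 2 or more libraries (10465) were analysed as log2(FPKM + 1). The 4 line means were fitted in R 4.3.3 with the lmFit and eBayes functions (variance trend included) of limma 3.58.1 (4 residual and 1.863 prior degrees of freedom), with p-values two-sided and adjusted by Benjamini-Hochberg over all tested genes in each comparison (threshold 0.05). Fold changes are on the FPKM + 1 scale, which understates the change of low genes. An exact permutation test of 2 libraries against 2 cannot go below p = 0.333, so it was left out. On simulated data the fit was checked first.

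The members and the lists were chosen with earlier results of these data known. Named genes were all 10 members, *DAXX*, up to 4 called genes of each related list with the largest change (the 2 highest in FPKM where none was called), and the 5 genes most correlated with the member of widest range. Not every gene under this rule is reported here. Other genes (*ATF4*, *DDIT4*, *VLDLR*, *SLC7A5*, *TRIB3* and *PSPHP1*) were named after their values were seen. Alternatives were a pseudocount of 0.1, no filter, median scaling, quantile normalization, the compared lines alone, a replicate block and each library left out. Promoter windows and gene positions come from RefSeq, GRCh38.p14.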

Additional observations from a re-analysis of the deposited data

How the results depend on the processing

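With a pseudocount of 0.1, 1 member was called lower in KD (0 with a pseudocount of 1) and 1 related gene higher in WT OE (2). Without a filter, related genes called numbered 2 lower in KD (4), 1 up in WT OE (2) and 6 up in DSM OE (10). With quantile normalization 1 related gene was higher in KD (2) and 2 were lower in WT OE than in DSM OE (1), and median scaling moved no count by over 1.5 times. Scaling moved the median of all genes by less than 0.1. When only the 4 libraries of a comparison were fitted, which leaves fewer samples, 0 members were higher in WT OE (3), 2 in DSM OE (5) and 0 lower in WT OE than in DSM OE (1). For related genes it gave 3 higher in DSM OE and 0 for the other counts with a call, except the 1 lower in DSM OE.

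The replicate numbers did not pair the libraries: deviations of same-numbered libraries correlated at -0.0612 to 0.0425. With the replicate block the members that passed upward numbered 2 for WT OE (3) and 4 for DSM OE (5), and 0 were lower in WT OE than in DSM OE. Related genes then gave for KD 0 higher and 1 lower, for WT OE 0 and 0, for DSM OE 6 higher, and 0 lower in WT OE than in DSM OE.

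Over the 8 libraries left out in turn, members higher numbered 2 to 2 in WT OE and 3 to 5 in DSM OE, and 0 to 0 were lower in WT OE than in DSM OE. Called related genes ran, up and down, at 0 to 1 and 0 to 2 for KD, 0 to 1 and 0 to 2 for WT OE, 4 to 7 and 1 to 2 for DSM OE, and 0 to 1 each way between the overexpression lines. Of the values of single genes, 59 went from called to not called and 4 the other way with all libraries in the fit, and 149 and 9 with one left out. No called fold change turned its sign under any of these alternatives. The mapped depth of each library is unknown, and 2 libraries per line limit every value.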

Other observations

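Some genes of folate and methionine metabolism were listed at 0 or differed widely between duplicates. *SLC19A1*, the reduced folate carrier gene, *BHMT* and *BHMT2*, betaine-homocysteine methyltransferase genes, and *FTCD* were listed at 0 in every library, which in FPKM can also be a failed estimate. *MTAP*, the methylthioadenosine phosphorylase gene of the methionine salvage pathway, was listed at 0 in 7 libraries and at 0.00109 in DSM OE replicate 1. *AHCY*, the adenosylhomocysteinase gene, was 12.7 and 52.6 in KD cells, 32.2 and 6.08 in WT OE cells and 5.05 and 3.44 in DSM OE cells, against 10.8 and 47.6 in control cells. *SLC1A4*, a serine transporter gene, was 2.40 and 1.89 in KD cells, 0.0846 and 7.06 in WT OE cells and 11.1 and 0.984 in DSM OE cells, against 2.82 and 3.74 in control cells. Neither *AHCY* nor *SLC1A4* was called in any comparison. These genes were chosen after their values were seen.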
